A study of Mus musculus with 34 samples.

Results

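The loci described here are 4829 places in the genome of resting thioglycollate-elicited macrophages (TGEMs) where ChIP-seq found a peak of ATF3 and a peak of JunD but none of Jun. They were chosen by the 3 Veh peak lists of C57BL/6 TGEMs. Merging the ATF3, Jun and JunD peaks that shared 1 bp or more gave 29552 loci, and those with both ATF3 and JunD and without Jun were kept. Of the other loci, 10558 had peaks of all 3 monomers, 5931 had ATF3 only and 3257 had JunD only, and these 3 sets serve for comparison below. The remaining loci had Jun alone (2182) or Jun with either ATF3 (1809) or JunD (986).

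AP-1 is a family of transcription factors that bind DNA as dimers of basic leucine zipper proteins. Jun and JunD belong to the Jun subfamily and can pair with Fos or ATF proteins, and ATF3 is a stress-induced member of the ATF subfamily that pairs with Jun proteins among others. The best known AP-1 sites are the TPA response element (TRE, TGACTCA), and the cAMP response element (CRE, TGACGTCA and close variants), which is longer by a base. In macrophages AP-1 binds beside lineage factors such as PU.1 and CEBPa, and Toll-like receptor signals change which of its members are present.

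TGEMs are macrophages recruited to the peritoneum of mice by an injection of thioglycollate. They came from mice of the genotype C57Bl/6EiJ by the labels (C57BL/6J in the methods of the study), Balb/cJ or PPARgKO. The sample titles give the knockout as C57Bl6-PPARgKO, so its strain is C57BL/6 by the titles. By the methods, the C57BL/6 and BALB/cJ mice were male. For the C57BL/6 and BALB/cJ mice an age of 8 weeks and collection 3 days after the injection are given, and for the PPARgKO mice neither is given in the sources used here. The cells were given vehicle (Veh, PBS) or 100 ng/mL Kdo2 lipid A (KLA), a TLR4 agonist, for 1 h, and the cell type that lost PPARg in the knockout mice and the driver of the deletion are not given in the sources used here. The 34 samples comprise 30 immunoprecipitations with 1 peak list each and 4 inputs with none analysed here. Lists of ATF3, Jun, JunD, Fos, FosL2 (labelled Fra2), JunB, PU.1 and CEBPa from C57BL/6 with Veh and KLA were used, together with PPARg from C57BL/6 with Veh, ATF3, Jun, JunD, Fos and JunB from BALB/cJ with Veh and KLA, and ATF3, Jun and JunD from PPARgKO with Veh.

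Each list combines the replicate experiments of a condition, so there is no replicate to compare, and every interval below covers counting error over loci only. The 29 lists with peaks held between 9 and 41573 peaks. The BALB/cJ Veh list of Fos was empty, that of JunB held 9 peaks, and the knockout list of Jun held 4290 peaks against 15548 in C57BL/6. The count of a peak is not scaled to library size, and its median was 277 in the KLA list of JunD and 259 in the Veh list of PU.1 but at most 76 in the other lists. Counts were therefore ranked within a list and given as a percentile of it, and the depth of the libraries is unknown. By the methods, lists were called against the input of their treatment and so share it, and peaks do not measure expression, so neither the macrophage identity of the cells nor the loss of Pparg could be checked.

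The loci are illustrated by 6 sequences, 2 outside annotated exons from the top of each of 3 orderings. The Zmiz1 and Wee1 loci were among the strongest by mean percentile of ATF3 and JunD, the Frmd6 and Hsd17b12 loci had the highest Jun count after KLA among loci with Jun after KLA in both strains, and the Cux1 and Vav3 loci were among the strongest with no Jun peak in any of the 5 Jun lists. The central 200 bp on GRCm38 (the mm10 build of the files) are printed 5′ to 3′, and capitals mark matches to the motifs searched, on either strand. Each of these 6 loci is named by the gene that holds it or whose transcription start site (TSS) is nearest.
Zmiz1 locus, chr14:25527388-25527587, plus strand: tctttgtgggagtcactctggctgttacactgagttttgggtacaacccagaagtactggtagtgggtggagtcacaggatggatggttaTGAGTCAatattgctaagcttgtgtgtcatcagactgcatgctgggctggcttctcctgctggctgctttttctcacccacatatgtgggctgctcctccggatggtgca
Wee1 locus, chr7:110109326-110109525, plus strand: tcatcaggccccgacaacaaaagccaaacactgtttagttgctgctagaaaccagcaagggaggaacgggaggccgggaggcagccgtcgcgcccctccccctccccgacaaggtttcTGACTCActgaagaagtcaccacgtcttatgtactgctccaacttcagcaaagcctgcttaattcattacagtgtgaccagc
Frmd6 locus, chr12:70695201-70695400, plus strand: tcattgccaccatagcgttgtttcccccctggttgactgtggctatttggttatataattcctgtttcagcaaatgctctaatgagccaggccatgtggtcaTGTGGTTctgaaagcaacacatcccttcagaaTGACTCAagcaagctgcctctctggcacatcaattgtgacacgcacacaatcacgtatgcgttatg
Hsd17b12 locus, chr2:94052015-94052214, plus strand: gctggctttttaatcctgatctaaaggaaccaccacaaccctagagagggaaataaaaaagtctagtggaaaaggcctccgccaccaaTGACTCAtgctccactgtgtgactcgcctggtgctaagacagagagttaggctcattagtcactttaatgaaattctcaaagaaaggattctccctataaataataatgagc
Cux1 locus, chr5:136482479-136482678, plus strand: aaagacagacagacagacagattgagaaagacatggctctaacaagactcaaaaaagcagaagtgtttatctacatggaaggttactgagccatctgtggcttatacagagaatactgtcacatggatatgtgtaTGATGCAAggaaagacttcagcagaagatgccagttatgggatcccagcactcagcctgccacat
Vav3 locus, chr3:109251889-109252088, plus strand: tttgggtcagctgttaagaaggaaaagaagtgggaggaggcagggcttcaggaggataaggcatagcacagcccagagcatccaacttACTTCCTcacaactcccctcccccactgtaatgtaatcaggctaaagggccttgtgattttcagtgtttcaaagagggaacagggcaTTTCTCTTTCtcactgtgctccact
The first 4 of these windows hold a TRE (TGACTCA, or TGAGTCA when read on the other strand). The Cux1 window holds no TRE or CRE but the composite of a CEBP and an ATF half-site (TGATGCAA), and the Vav3 window holds a PU.1 motif (ACTTCCT) and an IRF motif on the other strand. The Frmd6 window also holds a Runx motif (TGTGGTT).

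The values that chose the loci are given first, as a description. The ATF3 count had a median of 50 (lowest 25, highest 347) and the JunD count a median of 44 (27 to 157), which corresponded to median percentiles of 42.2 in the ATF3 list and 38.5 in the JunD list. Where all 3 monomers had a peak, the medians were 83 and 66 counts and percentiles of 72.2 and 70.0. At ATF3-only loci the ATF3 percentile had a median of 24.3, and at JunD-only loci the JunD percentile had a median of 16.9. In strength the loci without Jun thus lay between those with all 3 monomers and those with 1 monomer. Nearly all of them (4825) were made of exactly 1 ATF3 and 1 JunD peak, whose centres were a median of 24 bp apart (0 to 345 bp).

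The absence of Jun rests on a threshold. The nearest resting Jun peak was less than 100 bp beyond the locus at 55 loci, less than 1 kb at 689 (14.3%, 95% Wilson interval 13.3% to 15.3%) and a median of 9266 bp away. On the other side of the rule, 294 of the 10558 loci with all 3 monomers had a Jun peak in the lowest decile of the Jun list, with counts of 12 to 15 and a median of 14.

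After KLA, Jun had a peak at 2100 of the 4829 loci (43.5%, 42.1% to 44.9%). This was close to the 44.1% of all 29552 resting loci, a background that includes the loci already bound by Jun, of which those with all 3 monomers had a Jun peak after KLA in 72.4%. Among loci that lacked Jun at rest the share was higher where ATF3 and JunD were bound together. It was 21.8% at ATF3-only loci, a difference of 21.7 percentage points (95% Newcombe interval 19.9 to 23.4), and 19.1% at JunD-only loci, a difference of 24.4 points (22.4 to 26.3). Within deciles (10 parts of equal size by count) of the ATF3 list the first difference was 16.1 points (14.3 to 17.9), and within deciles of the JunD list the second was 15.5 points (13.4 to 17.6).

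The share with Jun after KLA was higher where the resting peaks were stronger. It was 25.7% (106 of 412 loci) in the lowest decile of the ATF3 list and 66.2% (86 of 130, 57.7% to 73.7%) in the highest decile. By JunD it went from 27.1% (162 of 599) to 91.8% (45 of 49, 80.8% to 96.8%), and loci with all 3 monomers in the same highest decile reached 96.8% (95.9% to 97.5%). The intervals of these last shares overlap, and the difference between them was not tested.

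**Figure D1:**
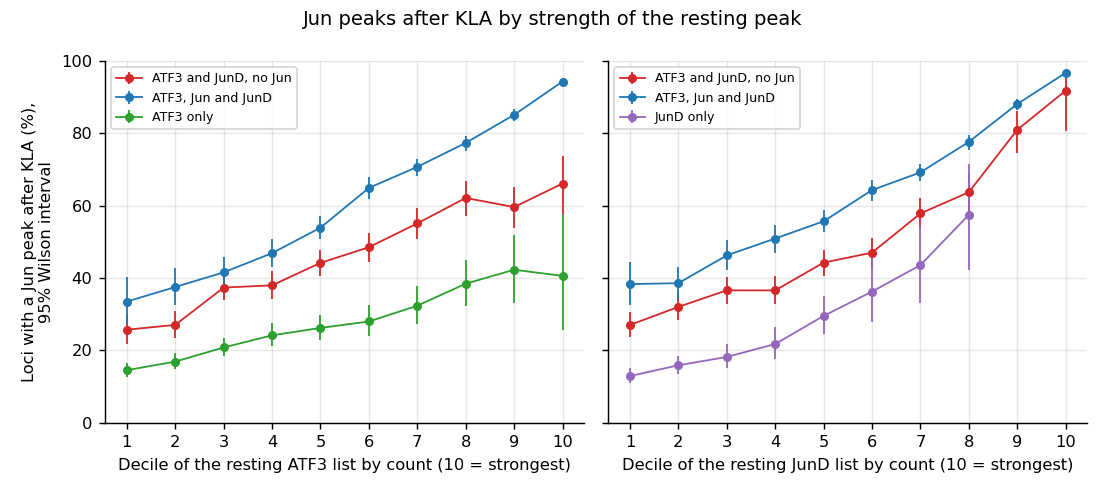
Share of loci with a Jun peak after KLA (y axis, percent) against the decile of the resting ATF3 list (left) or JunD list (right) to which the locus belongs by count (x axis, 10 the strongest). Points are shares over loci, bars 95% Wilson intervals, and sets with fewer than 20 loci in a decile are left out. The ATF3 and JunD loci without Jun go from 25.7% to 66.2% by ATF3 and from 27.1% to 91.8% by JunD, between the sets with 3 monomers and with 1 monomer.

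Seen from the Jun list, 8496 of the 17480 Jun peaks after KLA met no resting Jun peak. Of these, 2097 (24.7%, 23.8% to 25.6%) lay at the ATF3 and JunD loci, 1280 (15.1%) at ATF3-only loci, 616 (7.25%) at JunD-only loci and 4473 (52.6%) where none of the 3 monomers had a resting peak. The Jun count at the ATF3 and JunD loci had a median of 29 (16 to 100), a median percentile of 45.9 in the Jun KLA list, beside 68.7 at the loci with all 3 monomers. The Jun peaks gained there were thus of middling rank, and those at ATF3-only and JunD-only loci had median percentiles of 39.9 and 28.9.

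ATF3 and JunD mostly stayed. After KLA, ATF3 had a peak at 80.7% of the loci (79.6% to 81.8%, background 73.6%) and JunD at 75.05% (73.8% to 76.2%, background 67.2%). The background includes loci without ATF3 or without JunD at rest. Loci with all 3 monomers had ATF3 after KLA at 94% and JunD at 91.2%, so both shares were lower here, by -13.3 and -16.1 points. All 3 monomers were present together at 1947 loci (40.3%, background 41.38%), and ATF3 and JunD again without Jun at 1388 (28.7%, background 20.79%). ATF3 was alone at 487 (10.08%, background 10.26%) and JunD alone at 242 (5.011%, background 4.193%). No peak of the 3 was left at 612 loci (12.7%, background 20.7%). A Jun peak after KLA came without either partner at only 29 loci (0.6005%, background 0.6396%). Where ATF3 and JunD had a peak after KLA, their median percentiles in the KLA lists were 57.7 and 53.7, beside 79.9 and 76.4 at the loci with all 3 monomers.

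The other AP-1 members had peaks at more of these loci after KLA than at rest, as they had over all resting loci, and their KLA shares were near the background. Fos, an early-response partner of Jun proteins, had a peak at 121 loci at rest (2.51%, background 4.12%) and at 2696 after KLA (55.8%, 54.4% to 57.2%, background 52.8%). JunB went from 20 loci (0.414%, background 1.15%) to 1544 (32.0%, background 33.4%), and FosL2 from 567 (11.7%, background 16.2%) to 1211 (25.1%, background 26.8%). After KLA each share was lower than at loci with all 3 monomers, with a difference of -24.0 points for Fos (-25.6 to -22.5), -26.5 for JunB (-28.1 to -24.9) and -20.8 for FosL2 (-22.3 to -19.2). The lists themselves grew with KLA, from 1804 to 24365 peaks for Fos, 463 to 13375 for JunB and 5329 to 10619 for FosL2. Each share was higher than at ATF3-only loci, by 25.4, 16.7 and 13.6 points in the same order. Within deciles of the ATF3 list the differences from the loci with all 3 monomers were smaller, -11.8 points for Fos (-13.6 to -10.1), -9.81 for JunB (-11.6 to -8.06) and -8.49 for FosL2 (-10.2 to -6.80). Counting Jun, Fos, FosL2 and JunB after KLA together, 644 loci (13.3%) had all 4 and 1591 (32.9%) had none.

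**Figure D2:**
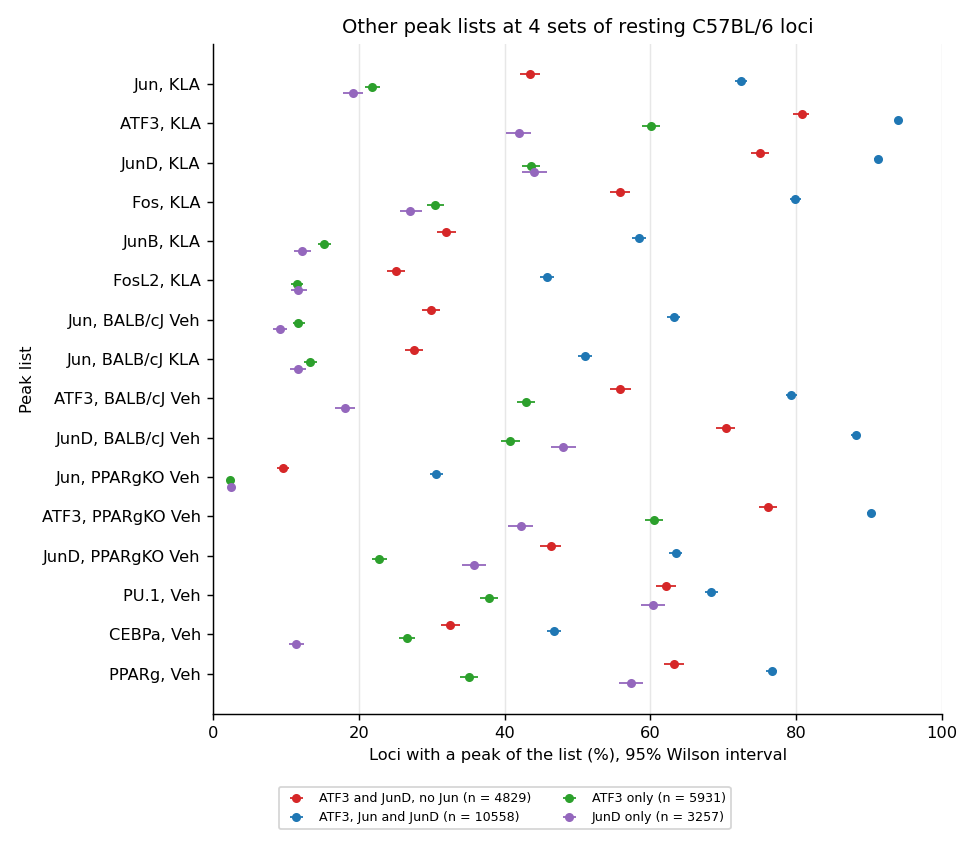
Share of loci with a peak of each list (x axis, percent, with 95% Wilson intervals) for 16 lists (y axis) and 4 sets of resting C57BL/6 loci. In each list shown the ATF3 and JunD loci without Jun (red) lie below the loci with all 3 monomers (blue), with a difference of -28.9 points for Jun after KLA, and above the ATF3-only loci (green). The rule parted the red and blue sets by resting Jun, so their difference in the Jun lists is no independent result. It parted the red and green sets by resting JunD, so the same holds for their difference in the JunD lists.

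Loci with Jun after KLA more often had peaks of the other members after KLA. At the 2100 loci with Jun after KLA, Fos had a peak in 81.8%, against 35.9% at the loci without, a difference of 45.9 points (43.4 to 48.3). The difference was 41.2 points for JunB (38.7 to 43.7) and 30.9 for FosL2 (28.4 to 33.3). ATF3 and JunD differed likewise after KLA, ATF3 with 96.4% against 68.7% and JunD with 94.95% against 59.75%. The loci without Jun thus include those that had lost ATF3 or JunD as well. FosL2 already had a resting peak at 13.43% and 10.45% of the loci, and gain of these members was not counted as such. Fos without Jun was found at 979 loci (20.3%) and Jun without Fos at 383 (7.93%). PU.1, the ETS factor that directs macrophage identity, had resting peaks at 61.6% and 62.5% of these loci (difference -0.892 points, -3.66 to 1.86), and differed after KLA (73.1% and 59.1%, 14.0 points, 11.3 to 16.6). For CEBPa, a bZIP factor of myeloid cells, the shares at rest were 32.3% and 32.7% (difference -0.449 points, -3.10 to 2.22), and within deciles of the ATF3 list the difference was -7.97 points (-10.5 to -5.44). After KLA CEBPa was more frequent at the loci with Jun by 17.2 points (14.5 to 19.9), and by 10.1 points within the deciles.

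The sequence differed as well. A TRE was found in 30.0% of the loci that gained Jun and in 18.5% of the others, 11.4 points apart (8.97 to 13.9), while the CRE was in 6.71% and 6.52% (0.189 points, -1.21 to 1.63). The IRF motif was in 4.71% and 2.38% (2.33 points, 1.28 to 3.45) and the NFkB motif in 1.67% and 0.696% (0.970 points, 0.363 to 1.66). The PU.1 motif was less frequent at the loci that gained Jun, 21.7% against 25.5% (-3.76 points, -6.15 to -1.34). The loci that gained Jun also had the higher median percentile at rest, 49.9 against 36.4 for ATF3 and 48.2 against 31.8 for JunD, and for these motifs the differences within deciles of the ATF3 list had the same sign, as the plot of both estimates shows.

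**Figure D3:**
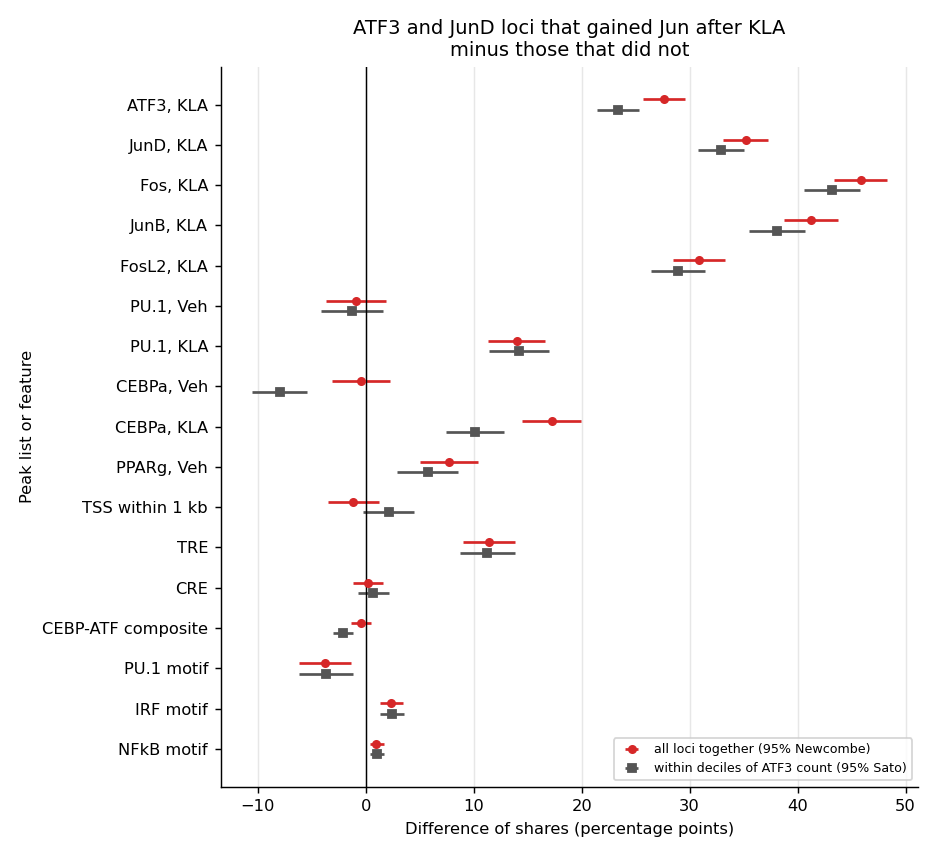
Difference in share (x axis, percentage points) between the 2100 ATF3 and JunD loci with and the 2728 without a Jun peak after KLA, for peak lists and sequence features (y axis). Circles are over all these loci with 95% Newcombe intervals, squares within deciles of the ATF3 list with 95% Sato intervals. Fos after KLA differs most, by 45.9 points, and PU.1 at rest by -0.892 points.

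In BALB/cJ TGEMs Jun was present at part of these loci without KLA. The resting BALB/cJ list of Jun had a peak at 1442 loci (29.9%, 28.6% to 31.2%, background 33.8%), and the other loci lacked a Jun peak in that list too. Jun was less frequent than at the loci with all 3 monomers (63.2%), with a difference of -33.3 points (-34.9 to -31.7), and of -15.8 points (-17.5 to -14.0) within deciles of the ATF3 list. The rule parted these sets by resting Jun, so this difference is no independent result. After KLA the BALB/cJ list of Jun had a peak at 1330 loci (27.5%, 26.3% to 28.8%, background 29.5%), of which 929 also had Jun after KLA in C57BL/6, 44.2% of the C57BL/6 loci and 69.8% of the BALB/cJ loci. The share with resting BALB/cJ Jun went from 35 of 412 loci in the lowest decile of the C57BL/6 ATF3 list to 73 of 130 loci (56.2%, 47.6% to 64.4%) in the highest. The BALB/cJ Jun lists are shorter, 10957 peaks with Veh and 11317 with KLA against 15548 and 17480 in C57BL/6.

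ATF3 had a resting peak in BALB/cJ at 55.9% of the loci (54.5% to 57.3%, background 53.8%) and JunD at 70.3% (69.0% to 71.6%, background 64.9%). The share for ATF3 was 12.98 points above that of ATF3-only loci (11.1 to 14.8), but 0.449 points (-1.37 to 2.27) within deciles of the ATF3 list. For JunD the difference from JunD-only loci was 22.3 points (20.1 to 24.4), and 12.8 points (10.5 to 15.2) within deciles of the JunD list. The rule itself, applied to the 3 resting BALB/cJ lists, found 6381 loci, and 1170 of them met the C57BL/6 loci, which is 24.2% of the C57BL/6 set and 18.3% of the BALB/cJ set. With KLA, BALB/cJ lists of ATF3 (78.1%, background 71.7%), JunD (67.7%, background 63.5%), Fos (78.3%, background 72.1%) and JunB (48.2%, background 47.2%) covered these loci. The resting BALB/cJ list of JunB covered 0 of 4829, with a Wilson upper limit of 0.0795% (background 0.0271%).

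In PPARgKO TGEMs with Veh, ATF3 had a peak at 76.1% of the loci (74.9% to 77.3%, background 70.1%), JunD at 46.3% (44.9% to 47.7%, background 43.3%) and Jun at 460 loci (9.53%, 8.73% to 10.4%, background 13.8%). ATF3 and JunD without Jun were found at 1603 loci (33.2%, background 26.13%) and ATF3 alone at 1658 (34.3%, background 30.93%). Jun was less frequent than at the loci with all 3 monomers with a difference of -21.0 points (-22.2 to -19.8), and of -6.27 points (-7.51 to -5.03) within deciles of the ATF3 list. Here too the rule had parted the sets by Jun. PPARg itself, a lipid-sensing nuclear receptor, had a resting peak in C57BL/6 at 3055 loci (63.3%, 61.9% to 64.6%, background 58.4%).

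Over the other 4 Jun lists together, 1748 loci (36.2%, 34.9% to 37.6%) had no Jun peak in any, 1493 had Jun in 1 list, 1029 in 2, 455 in 3 and 104 (2.15%) in all 4. At ATF3-only and JunD-only loci the share without Jun in any list was 66.0% and 69.8%. The most frequent combination with Jun was the C57BL/6 KLA list alone, with 724 loci, followed by resting BALB/cJ alone, with 444, and by KLA in both strains, with 442.

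**Figure D4:**
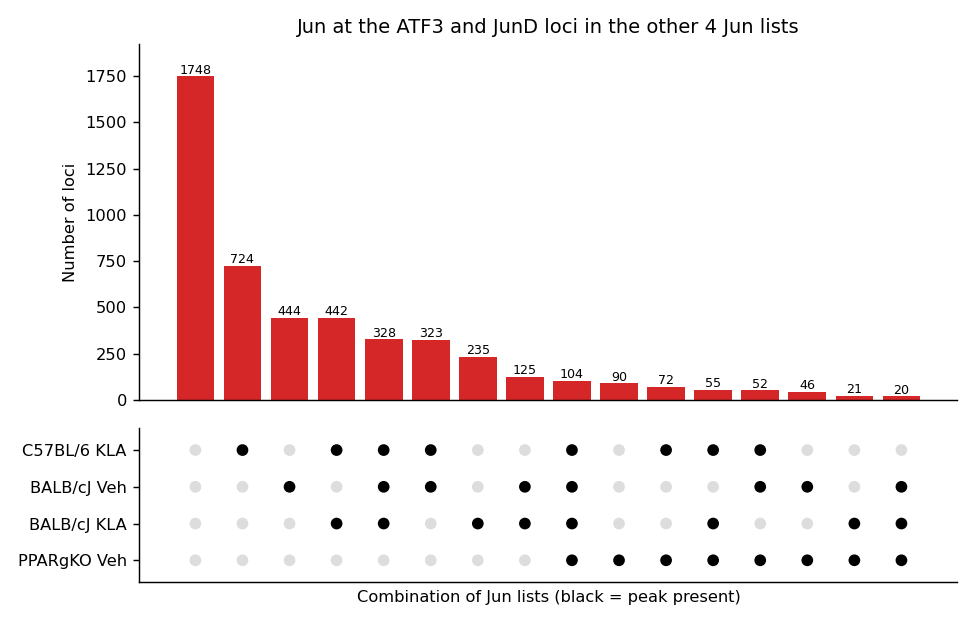
Number of ATF3 and JunD loci (y axis, top) with each combination of peaks in the other 4 Jun lists (x axis, black dots below mark the lists with a peak). The largest bar is the 1748 loci without Jun in any list, and the 724 loci with Jun in C57BL/6 after KLA only come next.

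The lineage factors were compared with the loci that had all 3 monomers. PU.1 had a resting peak at 2998 of the loci without Jun (62.1%, 60.7% to 63.4%, background 56.8%), a difference of -6.25 points (-7.89 to -4.63), and after KLA at 65.2% (background 59.8%). CEBPa had a resting peak at 1571 loci (32.5%, 31.2% to 33.9%, background 32.3%), a difference of -14.2 points (-15.8 to -12.6), and after KLA at 34.6% (background 33.5%). Within deciles of the ATF3 list the CEBPa difference turned to 1.84 points higher (0.145 to 3.54). For PPARg the difference was -13.4 points (-14.9 to -11.8), and -6.26 points (-8.00 to -4.52) within the deciles. PU.1, CEBPa and PPARg were all bound at rest at 757 loci (15.7%, background 15.36%), and none of them at 612 (12.7%, background 17.89%). Jun after KLA was found at 47.3% of the first group (43.8% to 50.9%) and 41.5% of the second (37.7% to 45.5%). Over all resting loci, which include those already bound by Jun, these shares were 65.6% and 29.39%. The share was 35.8% with PU.1 alone, 37.25% with CEBPa alone and 38.5% with these 2. Over all resting loci it was 31.81%, 31.3% and 40.77% in the same order. At the loci without Jun it was 49.85% with PPARg alone, 45.6% with PPARg and PU.1 and 41.25% with PPARg and CEBPa. The values for all resting loci were 44.91%, 48.27% and 54.71%. A higher share with PPARg than without it was thus seen over all resting loci too. PPARg had a resting peak at 67.6% of the loci with Jun after KLA and 59.9% of those without (7.72 points, 4.99 to 10.4).

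By position, 1062 loci (22.0%, 20.8% to 23.2%, background 21.5%) had their centre within 1 kb of the TSS of a protein-coding gene, 1905 (39.5%, background 39.0%) lay in introns, 1728 (35.8%, background 36.6%) between genes and 133 (2.75%, background 2.84%) in exons, by the GENCODE annotation. The share near a TSS was 6.39 points (5.05 to 7.77) above that of loci with all 3 monomers and differed from that of JunD-only loci by -18.2 points (-20.2 to -16.1). Within deciles of the ATF3 list the first difference was 0.142 points (-1.33 to 1.62), so no difference was detectable there. The loci were a median of 8966 bp from a TSS and had a median GC content of 49.5% over the central 200 bp.

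The motifs were searched as exact words on both strands in these 200 bp. The TRE was found at 1135 loci (23.5%, 22.3% to 24.7%), beside 26.0% of all resting loci, and the CRE (TGACGTCA, TGAGCTCA or TGACCTCA) at 319 (6.61%), beside 7.27%. A TRE or CRE was present in 29.2%, beside 31.9%, so most of these loci hold neither word. Against loci with all 3 monomers the TRE differed by -14.6 points (-16.1 to -13.1), by -8.81 points (-10.5 to -7.15) within deciles of the ATF3 list, and the CRE by -2.71 points (-3.58 to -1.79). For the palindrome TGACGTCA alone no difference was detectable (2.28% and 1.98%, 0.299 points, -0.179 to 0.822, background 1.84%). Against ATF3-only loci the TRE was 6.54 points higher (5.02 to 8.08).

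The composite TGATGCAA was most frequent at ATF3-only loci among these 4 sets. It was in 9.85% of them but in 2.71% of the ATF3 and JunD loci (background 3.42%), a difference of -7.13 points (-8.03 to -6.25). The JunD-only loci had it in 0.154%, and the ATF3 and JunD loci were 2.56 points above them (2.09 to 3.06). CEBP words (TTGCGCAA and 7 variants) were in 8.87% (background 8.79%), the PU.1 motif in 23.8% (background 21.7%) and the Runx motif in 7.97% (background 7.37%). The word TCACGTG, bound by MiT factors such as TFEB, was in 3.71% (background 3.50%), the Sp motif CCCCGCCC in 5.74% (background 5.35%), the NRF1 motif in 0.311% (background 0.281%), the IRF motif in 3.40% (background 3.03%) and the NFkB motif in 1.12% (background 0.836%). Of these, the Sp motif was more frequent than at loci with all 3 monomers by 2.01 points (1.28 to 2.78), but not within deciles of the ATF3 list (-0.162 points, -0.982 to 0.658).

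Loci near a TSS and distal loci were unlike in sequence and in their partners. Near a TSS, 15.3% had a TRE, against 25.8% of the distal loci (-10.6 points, -13.1 to -7.91), but 6.87% against 0.983% had the palindromic CRE (5.89 points, 4.47 to 7.60) and 19.1% had the Sp motif against 74 of the 3766 distal loci (17.1 points, 14.8 to 19.7). The PU.1 motif was less frequent there (-11.6 points, -14.1 to -8.96), as was the PU.1 peak (-6.55 points, -9.91 to -3.22). PPARg peaks were more frequent near a TSS, 71.5% against 60.9% (10.5 points, 7.34 to 13.6). Jun came after KLA at 42.2% of the TSS loci and 43.9% of the distal ones (-1.68 points, -5.02 to 1.70) in C57BL/6. Within deciles of the ATF3 list this difference was 2.93 points (-0.381 to 6.24). In BALB/cJ after KLA the Jun shares were 29.9% and 26.9% (3.07 points, 0.0312 to 6.22), and 6.45 points apart (3.37 to 9.52) within the deciles. Resting BALB/cJ Jun was less frequent near a TSS (-8.59 points, -11.5 to -5.58). Fos after KLA was at 41.1% and 60.0% (-18.8 points, -22.2 to -15.5) in C57BL/6, while in BALB/cJ it was at 76.6% and 78.8% (-2.14 points, -5.07 to 0.650), and whether the strains differ was not tested. Resting Fos had the opposite order, 6.69% near a TSS and 1.33% away from it (5.36 points, 3.94 to 7.05).

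**Figure D5:**
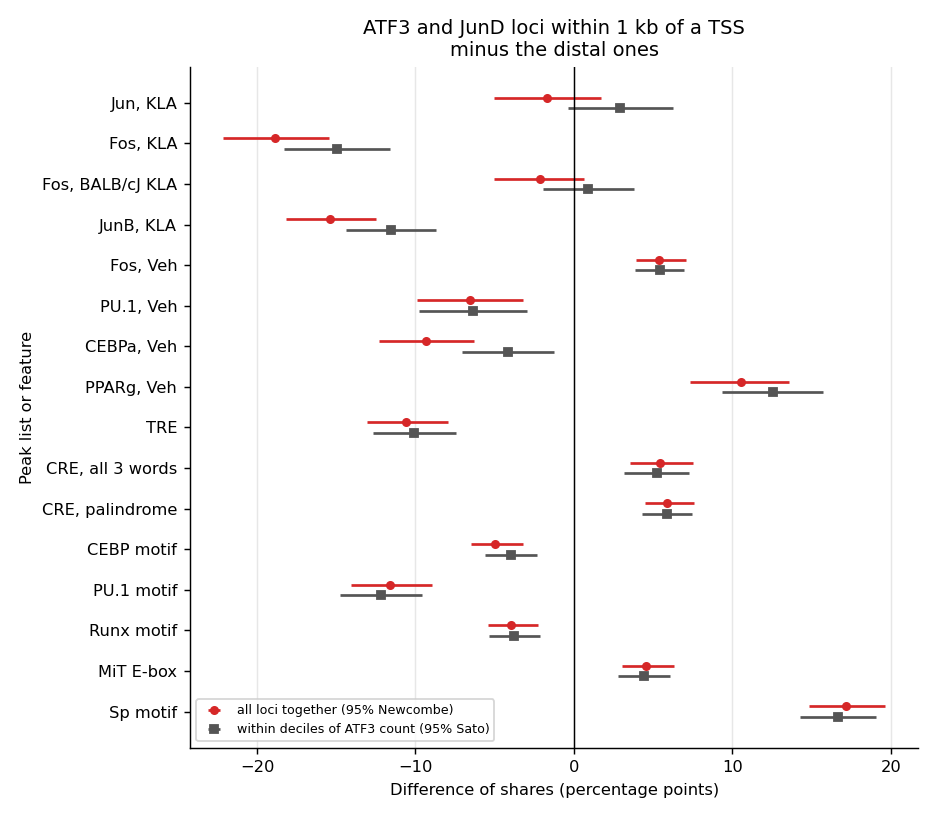
Difference in share (x axis, percentage points) between the 1062 ATF3 and JunD loci within 1 kb of a TSS and the distal ones, for peak lists and motifs (y axis). Circles are over all these loci with 95% Newcombe intervals, squares within deciles of the ATF3 list with 95% Sato intervals. The Sp motif lies at 17.1 points and Fos after KLA in C57BL/6 at -18.8 points.

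The 8 strongest loci by mean percentile all had a Jun peak in C57BL/6 after KLA. They lay at Zmiz1, Zfp608, Wee1, Nlrp1b, Clec1a, Lif, Arl8b and Tenm4, and none was within 1 kb of a TSS. In the intron of Zmiz1 (chr14:25527360-25527614), a gene for a transcriptional coregulator, the counts at rest were 285 for ATF3 and 157 for JunD. Jun there had 53 in C57BL/6 after KLA, 68 and 71 in BALB/cJ with Veh and KLA, and 36 in PPARgKO, so that all 4 other Jun lists held a peak. At Wee1 (chr7:110109265-110109585), which encodes a cell cycle kinase, ATF3 had 202 and JunD 152, and Jun had 57, 68, 78 and 40 in the same order. Nlrp1b, an inflammasome sensor, had a locus at -20851 bp from its TSS with 178 for ATF3 and 154 for JunD, and of the Jun lists only C57BL/6 with KLA held a peak, of 44. No BALB/cJ list of any factor had a peak at this locus.

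Among the 929 loci with Jun after KLA in both strains, the highest Jun counts in C57BL/6 were at Frmd6 (100), Hsd17b12 (100), Ksr1 (97), Ptchd3 (93), Slc38a1 (93), Ralgds (92), Jarid2 (90) and Vmp1 (89). The counts in BALB/cJ with KLA ran from 74 at Ksr1 to 111 at Vmp1. At Jarid2 (chr13:44538248-44538582), a partner of the Polycomb repressive complex, ATF3 and JunD were weak at rest, with 34 and 36 counts, while after KLA they had 276 and 792, in lists with other medians, and Jun had 90. At Vmp1, an autophagy gene, Jun had 91 in resting BALB/cJ before the 111 with KLA, whereas at Hsd17b12, Slc38a1, Ralgds and Jarid2 the resting BALB/cJ list held no Jun peak.

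Of the 1748 loci without Jun in any list, the strongest lay at Cux1, Slc45a4, Vav3, Hist1h4h, Carhsp1, Itsn1, Pld1 and Dgke. The Cux1 locus (chr5:136482458-136482698, intron) had 155 for ATF3 and 86 for JunD at rest, with PU.1 at 879 and CEBPa at 166. In C57BL/6 after KLA, ATF3 and JunD both had a peak at all 8 loci and Fos at Cux1 (36) and Itsn1 (60). In BALB/cJ after KLA, Fos had a peak at all 8, with counts from 50 at Dgke to 121 at Carhsp1. CEBPa had a resting peak at 6 of the 8, the exceptions being Vav3 and Hist1h4h, and PU.1 at 7, all but Hist1h4h. The composite TGATGCAA was present at Cux1, Slc45a4 and Carhsp1.

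Genes were counted where a locus lay in the gene or within 5 kb of it. Of 21924 protein-coding genes, 2926 (13.3%) held an ATF3 and JunD locus and 42.2% held any resting locus, and 235 genes held 3 or more. At 49.7% of the 2926 genes at least 1 of these loci had Jun after KLA. Gene length was not taken into account. The most loci (23) were in Gm20388, a gene model of 4434882 bp on chromosome 8 that spans many other genes, Irf8 among them, followed by Arid1b, Rbm47, Sgms1 and Zfp704 with 8 each. Arid1b encodes a chromatin remodelling subunit, Rbm47 an RNA-binding protein and Sgms1 a sphingomyelin synthase. Jun came after KLA at 2 of the 8 loci in Arid1b, 2 in Rbm47, 5 in Sgms1 and 3 in Zfp704.

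Gene lists are given as counts with no test and no allowance for gene length, and Jun after KLA refers to C57BL/6 unless BALB/cJ is named. A locus given for a listed gene can lie nearest the TSS of another gene. This was so at Sqstm1 (nearest Mgat4b), Ddit3 (Mbd6, -392 bp), Gabarap (Phf23, -205 bp) and Dusp3 (Sost). As background for each list, 13.3% of all protein-coding genes held an ATF3 and JunD locus and 42.2% any resting locus. Of the genes with an ATF3 and JunD locus, 49.7% had one with Jun after KLA. Of 25 cytokine and chemokine genes, 19 held some resting locus and 10 an ATF3 and JunD locus, beside the 13.3% of all protein-coding genes. Each of the 10 had one with Jun after KLA, beside 49.7% of all genes with such a locus: Ccl2, Ccl3, Cxcl10, Cxcl2, Cxcl3, Il10, Il1b, Il1rn, Il23a and Tnf. At the Tnf TSS (chr17:35201978-35202226), the gene of the main macrophage inflammatory cytokine, ATF3 had 59 and JunD 68 at rest, and Jun had 58 in C57BL/6 and 77 in BALB/cJ after KLA but no peak in either strain at rest. Il1rn, which encodes the antagonist of the interleukin-1 receptor, had 98 and 83 at its TSS, and Jun had 57 after KLA, 34 in resting BALB/cJ and 71 in BALB/cJ with KLA. Il23a, a cytokine subunit, had 119 and 37, with Jun at 58 after KLA and 26 in resting BALB/cJ. Cxcl3, a neutrophil chemokine, had 109 and 41, with Jun at 26 after KLA and in no other Jun list. Cxcl10, an interferon-induced chemokine, had loci at its TSS (49 and 38) and further upstream (59 and 29), where Jun had 62 and 38 in C57BL/6 after KLA.

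Genes of inducible transcription followed in smaller numbers. Of 22 immediate-early genes 20 held some resting locus and 5 an ATF3 and JunD locus, and 3 of these had Jun after KLA. Near the TSS of Fosl2 (101 for ATF3, 95 for JunD), the gene of FosL2, Jun had 42 after KLA, and near that of Zfp36 (74 and 96), which encodes a protein that destabilises cytokine mRNA, it had 51. Klf6 had 63 and 69 with Jun at 28, and Junb had 50 and 53 with no Jun in C57BL/6 after KLA but 32 in BALB/cJ. All 15 NFkB genes held some resting locus and 3 an ATF3 and JunD locus (Nfkb1, Nfkbia and Rel), and Jun came only to Rel (36). The Nfkbia TSS, which drives the NFkB inhibitor, had 70 and 62 at rest and no peak of ATF3, JunD or Jun in C57BL/6 after KLA, whereas in BALB/cJ after KLA ATF3 had 48, JunD 107 and Jun no peak. Of 23 interferon genes 13 held some resting locus and 5 an ATF3 and JunD locus. Jun came to Rsad2 (47), Dhx58 (24) and, at its strongest locus, Irf8 (23). Of 10 dual-specificity phosphatases 9 held some resting locus and 3 an ATF3 and JunD locus, and Jun came to Dusp5 (27) and Dusp16 (24) but not to Dusp3. Without KLA, Jun already had a peak in BALB/cJ at the Zfp36 (48), Klf6 (23), Rel (17), Rsad2 (30), Irf8 (38) and Dusp5 (19) loci. The resting BALB/cJ list held none at those of Fosl2, Dhx58 and Dusp16.

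Of 20 iron and NRF2 genes, 15 held some resting locus and 8 an ATF3 and JunD locus, and 6 of these had Jun after KLA. Hmox1, which encodes heme oxygenase, had 206 for ATF3 and 78 for JunD at a TRE-bearing locus -3928 bp from its TSS. Jun there had 36 after KLA and 26 in resting BALB/cJ. Slc7a11, the cystine transporter, had 114 and 83 with Jun at 45 after KLA and 24 in resting BALB/cJ. Sqstm1, the autophagy receptor, had 82 and 81 with Jun at 56 after KLA and a peak in all 4 other Jun lists. Fth1, the ferritin heavy chain, had a locus -2007 bp from its TSS (68 and 76) where Jun was absent in C57BL/6 after KLA but had 35 in BALB/cJ with KLA and 22 in PPARgKO. A further locus near Fth1 had 32 and 97 and no Jun in any list. Of 24 genes of the integrated stress response, 20 held some resting locus and 4 an ATF3 and JunD locus. Jun came after KLA at Slc7a11 and at Atf3 itself, where ATF3 had 91, JunD 66 and Jun 24. At this Atf3 locus Jun also had 24 in resting BALB/cJ. At Sesn2 and Ddit3 the C57BL/6 list held no Jun peak after KLA, and at Sesn2 Jun had 17 and 29 in BALB/cJ with Veh and KLA.

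Of 25 macrophage identity genes, 24 held some resting locus and 14 an ATF3 and JunD locus (56.0%, beside 13.3% of all protein-coding genes), and 10 of these had one with Jun after KLA. Csf2ra, a receptor chain for GM-CSF, had 123 and 95 at its TSS and no Jun in C57BL/6 after KLA, but 56 and 54 in BALB/cJ with Veh and KLA and 14 in PPARgKO. Tlr2 had 176 and 70, with Jun in resting BALB/cJ only (39). Fli1, an ETS factor, had 182 and 69 with Jun at 26 after KLA and no Jun peak in resting BALB/cJ. Irf8 had 113 and 70 with Jun at 23 after KLA and 38 in resting BALB/cJ. Of 23 PPARg and lipid genes, 22 held some resting locus and 10 an ATF3 and JunD locus (43.5%), and 6 of these had Jun after KLA. Among them were Abca1 (151 and 50, Jun 31), which exports cholesterol, Pparg itself (67 and 56, Jun 20), Angptl4 (71 and 48, Jun 38) and Klf9 (67 and 45, Jun 24). In resting BALB/cJ Jun had a peak at the Abca1 (23) and Klf9 (29) loci and none at those of Pparg and Angptl4.

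Of 36 lysosome genes, 34 held some resting locus and 13 an ATF3 and JunD locus (36.1%), and 5 of these had Jun after KLA. Ctsd, a lysosomal protease gene, had 95 and 69 with Jun at 37 after KLA and no Jun peak in resting BALB/cJ. Ctsa had 69 and 60 with Jun at 25 after KLA and 36 in resting BALB/cJ. Hexa had 57 and 66 and no Jun in any list, and the TSS loci of Ctsa and Hexa both hold TCACGTG. Of 14 autophagy genes 12 held some resting locus and 5 an ATF3 and JunD locus. Sqstm1, Atg7 and Tax1bp1 had one with Jun after KLA, although the strongest locus of Atg7, at its TSS, had no Jun in any list, and neither had those of Gabarap and Gabarapl1. Of 32 proteasome genes only Psma5 and Psmb4 held a locus (6.25%), although 27 of the 32 held some resting locus. Jun came after KLA at Psma5 (28) and not at Psmb4, while in resting BALB/cJ it had a peak at both (22 and 25). Of the other genes listed by name, Mmp12, Marco, Spsb1 and Spsb3 held none of these loci.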

How the data were processed

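ChIP-seq peaks of AP-1 monomers and partner factors were taken from the deposited lists. Per the methods and the submitters' processing notes, the authors aligned reads by Bowtie2 against mm10 (BALB/cJ reads against a genome of that strain, with positions shifted to mm10), called peaks of size 200 with HOMER against the input of the same treatment, and removed peaks with an irreproducible discovery rate (IDR) of 0.05 or more over replicates. The deposited count of a peak, which the authors gave as a whole number, is not normalised, and how replicates were combined in it is not stated. The deposited score is the scaled IDR, used here only for the stricter IDR of 0.01. The empty list was not used.

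The members and the gene lists were chosen with earlier results of these data known. Loci, overlaps (at least 1 bp), percentiles, motifs and positions (GRCm38 and GENCODE) were computed with Python 3.11.15, numpy 2.4.6, pandas 2.3.3 and matplotlib 3.10.9, and the functions were tested on simulated data. Coordinates are as in the files. The 7 loci with no protein-coding TSS on their sequence or no sequence in the reference were left out of positions and motifs. Shares have 95% Wilson intervals and differences of shares 95% Newcombe intervals, which pass when they leave out 0. Differences within deciles of a list by count used Mantel-Haenszel weights and Sato intervals. These cover counting error over loci, which share libraries and are no replicates of mice. Backgrounds are shares of all 29552 loci. Groups came from the labels.

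Named loci were, by a fixed rule, the 8 strongest by mean percentile, the 8 with the highest Jun count among those with Jun after KLA in both strains, the 8 strongest without Jun in any list, the 5 genes with most loci, 6 genes listed by name (Cxcl10, Fth1, Mmp12, Marco, Spsb1 and Spsb3), and up to 4 genes of each gene list. For the sequences, windows on chromosome 18 or in exons were passed over, the latter chosen after seeing the data. Alternatives were centres within 100 bp, overlap of 50% of both peaks, an IDR of 0.01, the stronger 50% of each list, no Jun peak within 1 kb, loci of 1 peak each, the deciles, a 100 bp window and a TSS distance of 3 kb. Expression, sequence variants and inputs were not analysed here.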

Additional observations from a re-analysis of the deposited data

How the results depend on the processing

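Of 104 values recomputed under alternatives, 91 kept their direction and their side of the threshold, or stayed within 1.5 times of a count or the interval of a share. Within deciles of the ATF3 list, the difference in CEBPa from loci with all 3 monomers turned from -14.2 to 1.84 points, that in TSS within 1 kb went from 6.39 to 0.142 points, and that in resting BALB/cJ ATF3 from ATF3-only loci from 12.98 to 0.449 points; the cause was not tested. The number of loci went from 4829 to 2686 with an IDR of 0.01 or less and to 1962 with the stronger part of each list, both of which test fewer peaks. The share with Jun after KLA was 41.6% with centres within 100 bp, 37.6% with the stricter IDR and 36.9% with the stronger peaks, against 43.5%. In BALB/cJ after KLA it was 25.6%, 26.2% (overlap of 50% of both peaks), 22.8% and 22.8%, against 27.5%, and in resting BALB/cJ 26.8% with the stronger peaks, against 29.9%. The stricter IDR and the choice of stronger peaks removed peaks from every list, the Jun lists among them. The lower shares under these 2 settings therefore do not compare stronger with weaker loci. The 8 other differences kept their sign and their intervals left out 0 under each alternative run. Among them is that of resting BALB/cJ Jun from loci with all 3 monomers, sets that the rule parted by resting Jun. No paired analysis was possible because each condition has 1 list and no replicate numbers. Depth is unknown, so a Jun peak missing from a list is not shown to be absent from the cells.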
